A study of Mus musculus with 8 samples.

Results

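The genes described here make up the MOS-MAPK and cytostatic factor pathway, which holds mammalian eggs at metaphase II (MII) until fertilization. They are Mos, the 2 MAPK/ERK kinase genes Map2k1 and Map2k2, the ERK1 gene Mapk3, the 3 p90 ribosomal S6 kinase genes Rps6ka1, Rps6ka2 and Rps6ka3, the EMI2 gene Fbxo43 and the polo-like kinase gene Plk1. They were chosen by gene name, and all 9 were found among the 46078 genes of the count table, each under 1 identifier. All 9 passed the filter on low counts, which required 0.2 CPM (read counts scaled to a common library total) in 2 libraries, as did 19241 genes in all.

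RNA was sequenced from fully grown germinal vesicle (GV) oocytes, which are arrested in prophase of meiosis I. The CNOT7&8 KO oocytes came from mice with floxed Cnot7 and Cnot8 alleles and Zp3-Cre, a transgene whose zona pellucida 3 promoter is active in growing oocytes, and the control oocytes came from mice labelled Zp3-Cre, so that both groups carry the Cre. CNOT7 and CNOT8 are alternative catalytic subunits of the CCR4-NOT complex, which shortens poly(A) tails. Each group had 4 libraries, each made from 100 oocytes, and the oocytes were taken from 4-week-old females of C57BL/6J background after injection of pregnant mare serum gonadotropin. Nothing in the labels says whether the libraries of a group came from separate animals, so p-values measure the spread between these libraries, which may be technical.

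MOS is a kinase that is made when the oocyte resumes meiosis. It phosphorylates MEK1 and MEK2, the products of Map2k1 and Map2k2, which activate the ERK kinases, and ERK in turn activates the RSK kinases encoded by the Rps6ka genes. EMI2 inhibits the anaphase-promoting complex (APC/C) and thereby keeps cyclin B from being destroyed, which is the core of the MII arrest called cytostatic factor (CSF) activity. At fertilization, calcium activates CaMKII, PLK1 binds EMI2 marked by it, and the SCF-βTrCP ubiquitin ligase removes EMI2. In GV oocytes, many mRNAs of this kind are stored with short poly(A) tails. Their translation is switched on later through cytoplasmic polyadenylation elements (CPEs) in the 3′UTR, which act together with the polyadenylation signal.

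Because such elements bear on tail length, the 3′UTR sites of 4 members are shown as examples, 5′ to 3′ on the strand of the gene, with the element in capitals. They were read from the GRCm38 genome with the GENCODE vM21 annotation, and the search covered the transcribed strand for the CPE letters TTTTAT and TTTTAAT and the polyadenylation signal letters AATAAA and ATTAAA.
Mos, polyadenylation signal, chr4:3870661-3870690, minus strand: atatttttaggaAATAAAgttaccacgaac
Fbxo43, CPE, chr15:36151060-36151089, minus strand: ttataatgggaaTTTTATttaataaactcc
Fbxo43, the CPE nearest to the end, chr15:36150145-36150174, minus strand: gtatatatgtgtTTTTATactatacacaca
Map2k1, CPE, chr9:64186178-64186207, minus strand: acgtcatggtatTTTTATtttttgcttttg
Plk1, polyadenylation signal variant, chr7:122169843-122169872, plus strand: agctttatatatATTAAAatgtgtacatct
The annotated 3′UTR of Mos, 126 bases long, held neither CPE letters, and its AATAAA ended 16 bases before the end of the transcript. That of Fbxo43, 1584 bases long, held TTTTAT at 6 positions, the last one ending 97 bases before the transcript end. In the first Fbxo43 site shown the TTTTAT is followed within the same 30 bases by AATAAA. This TTTTAT ends 1012 bases before the annotated transcript end and the AATAAA 1004 bases before it. The last 100 bases of the Fbxo43 3′UTR held 2 ATTAAA but no AATAAA. Map2k1 held 1 TTTTAT and 1 TTTTAAT in 915 bases, Rps6ka2 held 1 of each in 2974 bases, and Rps6ka3 held 7 TTTTAT in 4759 bases. Map2k2, Mapk3, Rps6ka1 and Plk1 held neither. Of the 9 members, 1 (Rps6ka2) had TTTTAT within the last 100 bases. The background was the 14721 tested protein-coding genes with a complete annotated transcript end and a 3′UTR of at least 100 bases. Of these, 14.8% had TTTTAT there, 5.37% had TTTTAAT, 66.0% AATAAA and 21.5% ATTAAA. A match is a description of these letters, not of a site in use, and transcript ends used in oocytes can differ from the annotated ones. Nor does a lack of these letters show that an mRNA escapes such control. The study's introduction lists Mos, with cyclin B and Emi2, among regulators whose translation is activated through cytoplasmic polyadenylation.

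Control libraries held 14943671 to 44092144 counts and CNOT7&8 KO libraries 8639444 to 26784110. The detection floor of 3 counts lay between 0.068 CPM (control replicate 1) and 0.347 CPM (KO replicate 1), which allows for counting error only. Normalized CPM below use the library size scaled by edgeR's TMM method, with factors between 0.849 and 0.943 for control and between 1.07 and 1.14 for KO libraries. Of the targeted genes, Cnot8 mRNA was at 154 to 197 CPM in control against 33.1 to 36.1 CPM in KO libraries, and Cnot7 at 886 to 1049 and 622 to 789 CPM. The counts cover whole genes, so reads on exons outside the deleted part are included. The 10 oocyte markers, such as Zp2, Zp3 and Gdf9, were all present, with a summed level of 15667 to 17228 CPM in control against 12621 to 15015 CPM in KO libraries. At the threshold used below, 6 of the 10 were lower and 1 was higher in KO, against 24.1% and 31.2% of all genes tested.

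Control replicate 1 and KO replicate 4 stood apart from the other libraries of their groups in the same way. Over genes averaging 10 CPM or more, the deviation of these libraries from their group means followed the GC content of the transcript. For transcripts above 55% GC, the median deviation was -0.39 on the log2 scale in control replicate 1 and -0.34 in KO replicate 4, and for those below 40% GC it was 0.28 and 0.12. In KO replicate 3 it was 0.31 above 55% GC. The members differ widely in GC content, from 40.5% in Rps6ka3 and 42.6% in Fbxo43 to 53.5% in Mos, 56.0% in Plk1, 57.6% in Mapk3 and 60.4% in Map2k2, so the values below are also given without both libraries, and with the GC trend of each library removed, where these settings matter. Both settings were chosen after the data were seen. The removed trend was fitted to the deviation of each library from the mean over the libraries of both groups. Any difference between the groups that follows GC content was therefore removed with it. The fold change between the groups also moved with GC content over the same genes, with a median of -0.087 on the log2 scale below 40% GC, where 31.6% of genes were lower at the threshold used below, and -0.51 above 55% GC, where 49.8% were. In control replicate 1, Mos deviated from the control mean by -1.04 on the log2 scale, Map2k2 by -1.14 and Plk1 by -0.50, whereas Rps6ka3 deviated by 0.25 and Fbxo43 by 0.21. In KO replicate 4, Map2k2 deviated by -0.88, Mos by -0.65, Rps6ka1 by -0.63 and Plk1 by -0.58. Mos, Map2k2 and Plk1 each lay further below the group mean in both libraries than the median transcript of any GC class.

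**Figure D1:**
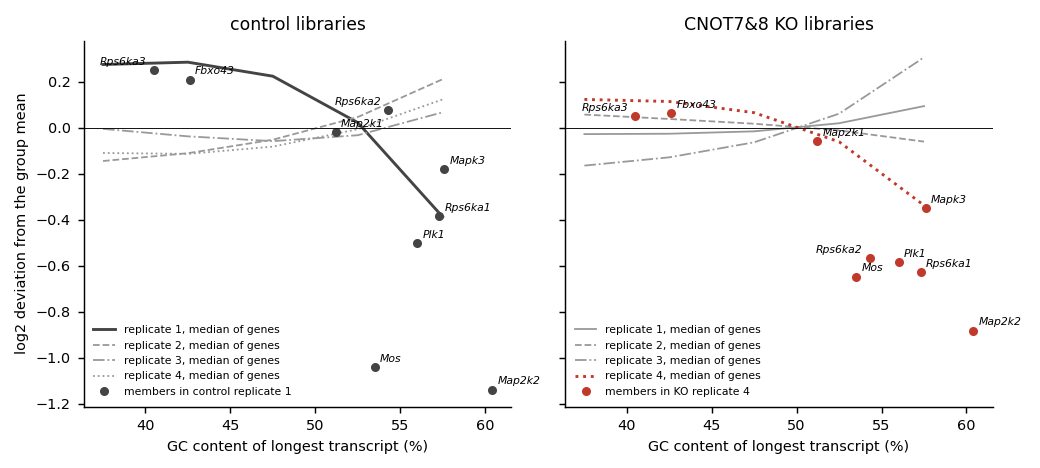
Log2 deviation of each library from its group mean against the GC content of the transcript, in control (left) and CNOT7&8 KO (right) libraries. Lines join the median deviation of genes of at least 10 CPM in 5 GC classes, drawn at class midpoints (the open outer classes just beyond their limits), and points are the 9 members in control replicate 1 (left) and KO replicate 4 (right). In both libraries the members above 55% GC lie below 0, with Map2k2 at -1.14 and -0.88.

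The comparison of CNOT7&8 KO with control oocytes asks how loss of both deadenylases changes the amount of each mRNA before meiosis resumes. Across the pathway, 6 of the 9 members were lower in KO oocytes at a false discovery rate (FDR, Benjamini-Hochberg over all genes tested) of 0.05, and none was higher by edgeR's quasi-likelihood test, its exact test or DESeq2. The 6 were Mos, Map2k1, Mapk3, Rps6ka3, Fbxo43 and Plk1, which include a gene for each tier of the kinase cascade. The other 3, Map2k2, Rps6ka1 and Rps6ka2, did not pass, and none of the members was higher at an unadjusted p under 0.05. Among all genes tested, 24.1% were lower and 31.2% were higher at the same threshold. When a fold change of at least 2 was also required, as for the differentially expressed genes (DEGs) of the study, Mos and Mapk3 were downregulated and no member was upregulated, against 6.56% and 23.8% of all genes. Every KO library lay below every control library for 4 of the 9 members, Map2k1, Mapk3, Rps6ka3 and Fbxo43, and above for none, which held for 21.4% (all lower) and 27.0% (all higher) of the genes tested. The median log2 fold change was -0.63 over the members and 0.12 over all genes tested. Abundant mRNAs in general were more often lower than higher. Of the 2414 genes averaging 100 CPM or more, 1333 were lower and 202 higher at the FDR threshold, with a median log2 fold change of -0.37, and Mos, Map2k1, Mapk3 and Fbxo43 are in this range. CPM are shares of a library, so less of an mRNA per oocyte and more of the remaining RNA cannot be told apart.

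**Figure D2:**
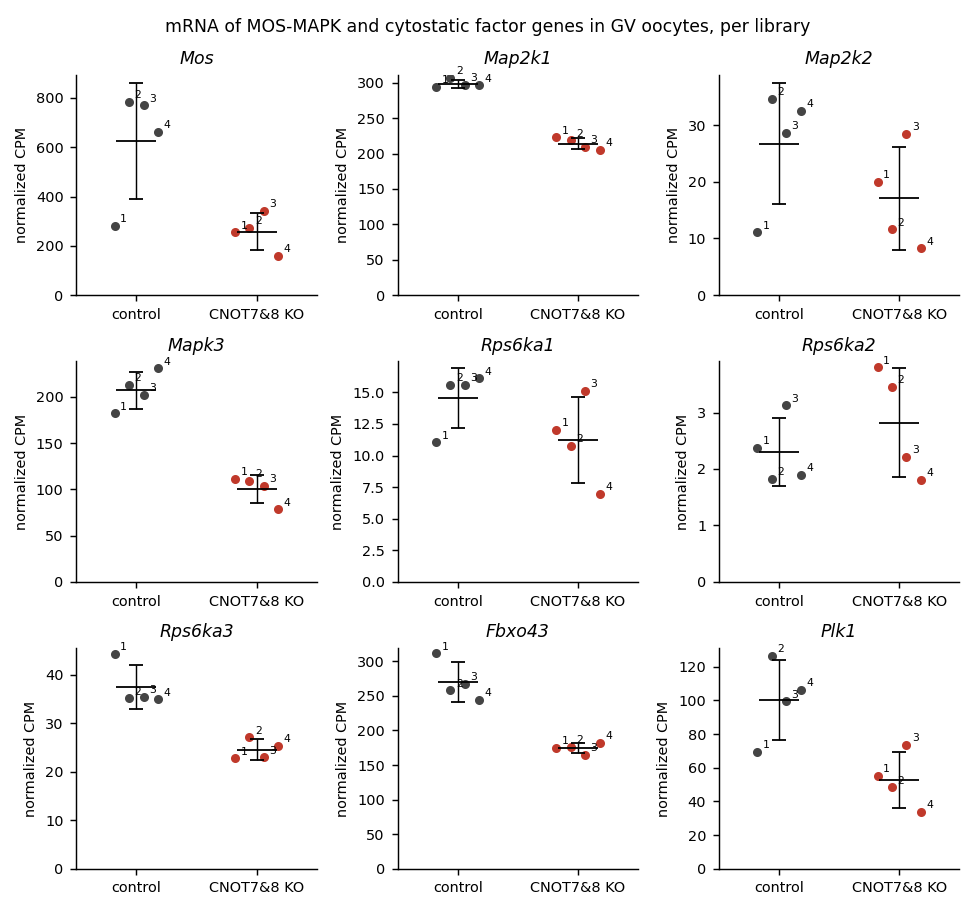
TMM-normalized CPM of the 9 members in each of the 4 control (dark) and 4 CNOT7&8 KO (red) libraries, numbered by replicate, with the mean and SD of each group as a bar and whiskers. Map2k1, Mapk3, Rps6ka3 and Fbxo43 show no overlap between the groups, while for Mos and Plk1 control replicate 1 lies within the range of the KO libraries.

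Mos (ENSMUSG00000078365), the kinase at the head of the cascade, is an intronless gene on chromosome 4 of GRCm38 from 3870657 to 3872105, minus strand. Its mRNA was at 281, 786, 770 and 661 CPM in control replicates 1 to 4 and at 254, 274, 342 and 158 CPM in KO replicates 1 to 4. The other 3 control libraries were far above all KO libraries, but control replicate 1 lay between KO replicates 2 and 3, so the groups overlap. The means were 624 ± 236 CPM (SD, n = 4) and 257 ± 75.8 CPM (SD, n = 4), 41.1% of the control level in KO. Mos fell by 1.28 on the log2 scale, with a standard error of 0.29, a 95% interval from -1.92 to -0.64 and an adjusted p of 0.00289 by edgeR's quasi-likelihood test, while the exact permutation test on the 8 values alone gave a two-sided p of 0.0571. Without control replicate 1 and KO replicate 4, the log2 fold change was -1.35 (adjusted p = 5.03e-07, edgeR), and with the GC trend removed it was -1.06 (adjusted p = 0.00319, edgeR).

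The MEK genes differed in how closely the libraries agreed. Map2k1 (ENSMUSG00000004936, chromosome 9, 64185770 to 64253631, minus strand), which encodes MEK1, was the steadiest of the members. It was at 295, 307, 297 and 296 CPM in control replicates 1 to 4 and at 223, 219, 209 and 206 CPM in KO replicates 1 to 4. In normalized CPM, all KO libraries lay below all control libraries, with a gap far wider than the spread within either group. The means were 299 ± 5.46 and 214 ± 8.13 CPM (SD, n = 4 each), 71.7% of the control level, and Map2k1 fell by 0.48 on the log2 scale (standard error 0.089, adjusted p = 0.000721 by edgeR's quasi-likelihood test). The exact permutation p was 0.0286, the smallest that 4 libraries against 4 allow. The size of this fall depended on how library sizes were scaled, since with library size alone it was -0.20 and no longer past the threshold (adjusted p = 0.0565, edgeR). Control libraries were then at 250 to 282 CPM and KO libraries at 225 to 242 CPM. These ranges do not overlap, but the gap was narrower than the spread within control.

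Map2k2 (ENSMUSG00000035027, chromosome 10, 81105915 to 81133975, plus strand), which encodes MEK2, was far less abundant. It was at 11.1, 34.7, 28.6 and 32.6 CPM in control replicates 1 to 4 and at 20.0, 11.6, 28.5 and 8.28 CPM in KO replicates 1 to 4. Values near 10 CPM and near 30 CPM occurred in both groups. The means were 26.8 ± 10.7 and 17.1 ± 9.05 CPM (SD, n = 4 each), and the log2 fold change of -0.65, with a 95% interval from -1.50 to 0.19, did not pass (adjusted p = 0.172, edgeR's quasi-likelihood test). Without control replicate 1 alone it was -0.92 and passed (adjusted p = 0.0268, edgeR), without both that library and KO replicate 4 it was -0.68 and passed (adjusted p = 0.0251, edgeR), and with the GC trend removed it was -0.15 (adjusted p = 0.553, edgeR). Of the MEK mRNA compared per length, Map2k1 made up 94.9 ± 1.93% in control and 95.5 ± 2.32% in KO libraries (SD, n = 4 each). The Map2k2 share ran from 2.21% in control replicate 1 to 7.54% in KO replicate 3. Length here is that of all annotated exons of a gene joined, which can exceed that of its mRNA in oocytes.

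Mapk3 (ENSMUSG00000063065, chromosome 7, 126759601 to 126765819, plus strand) encodes ERK1, one of the kinases at the end of the cascade. It was at 182, 213, 202 and 231 CPM in control replicates 1 to 4 and at 111, 109, 104 and 78.3 CPM in KO replicates 1 to 4. The lowest control library was well above the highest KO library. The means were 207 ± 20.3 and 100.7 ± 15.3 CPM (SD, n = 4 each), 48.6% of the control level. Mapk3 fell by 1.04 on the log2 scale, with a standard error of 0.13, a 95% interval from -1.33 to -0.76 and an adjusted p of 4.07e-05 by edgeR's quasi-likelihood test, and the exact permutation p was 0.0286. Mapk3 lies close to the 2-fold threshold. Its log2 fold change was -0.99 without control replicate 1 and KO replicate 4, -0.76 with library size alone and -0.65 with the GC trend removed, and in each of these fits it passed the FDR but not the fold threshold. It was also under 2-fold without control replicate 4 (-0.99) and without KO replicate 4 (-0.92).

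Among the RSK genes, Rps6ka3 (ENSMUSG00000031309, chromosome X, 159210307 to 159368244, plus strand), which encodes RSK2, had a clear difference. It was at 44.4, 35.1, 35.5 and 35.0 CPM in control replicates 1 to 4 and at 22.8, 27.1, 23.0 and 25.4 CPM in KO replicates 1 to 4. The groups do not overlap, and control replicate 1 was the highest library. The means were 37.5 ± 4.60 and 24.6 ± 2.07 CPM (SD, n = 4 each), 65.6% of the control level, and Rps6ka3 fell by 0.61 on the log2 scale (standard error 0.13, adjusted p = 0.00197 by edgeR's quasi-likelihood test, exact permutation p = 0.0286). With library size alone the log2 fold change was -0.32 (adjusted p = 0.039, edgeR).

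Rps6ka1 (ENSMUSG00000003644, chromosome 4, 133847290 to 133887797, minus strand), the RSK1 gene, was at 11.0, 15.6, 15.6 and 16.1 CPM in control replicates 1 to 4 and at 12.1, 10.8, 15.1 and 6.98 CPM in KO replicates 1 to 4. The groups overlap through control replicate 1. The log2 fold change was -0.38 with a 95% interval from -0.87 to 0.11 (adjusted p = 0.168, edgeR's quasi-likelihood test), and it was -0.018 with the GC trend removed, -0.10 with library size alone and -0.19 without KO replicate 4. Its exons share 247 bases with an antisense gene, Gm12977, which had 1 count in all 8 libraries together.

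Rps6ka2 (ENSMUSG00000023809, chromosome 17, 7170115 to 7303315, plus strand), the RSK3 gene, was rare, with 26 to 89 counts per library in control and 35 to 63 in KO. It was at 2.38, 1.83, 3.13 and 1.89 CPM in control replicates 1 to 4 and at 3.80, 3.46, 2.22 and 1.81 CPM in KO replicates 1 to 4. The values are interleaved. Its log2 fold change was 0.26 with a 95% interval from -0.38 to 0.91 (adjusted p = 0.472, edgeR's quasi-likelihood test), the one positive value among the members. With 1 library left out it ranged from 0.13 (without KO replicate 1) to 0.47 (without KO replicate 4), and it was also lower without KO replicate 2 (0.15) or control replicate 2 (0.17) and higher without control replicate 3 (0.43). With library size alone it was 0.54, and it passed in none of these. Compared per length, the RSK mRNA was 55.2 ± 6.75% Rps6ka3, 42.0 ± 6.84% Rps6ka1 and 2.83 ± 0.717% Rps6ka2 in control, and 51.0 ± 8.95%, 44.2 ± 8.83% and 4.79 ± 1.46% in KO libraries (SD, n = 4 each).

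Fbxo43 (ENSMUSG00000048230, chromosome 15, 36150060 to 36164884, minus strand) encodes EMI2, the APC/C inhibitor whose 3′UTR sites are shown above. It was at 311, 258, 267 and 245 CPM in control replicates 1 to 4 and at 175, 176, 165 and 182 CPM in KO replicates 1 to 4. All KO libraries were lower than all control libraries, and their spread was small. The means were 270.3 ± 28.9 and 175 ± 7.38 CPM (SD, n = 4 each), 64.6% of the control level. Fbxo43 fell by 0.63 on the log2 scale, with a standard error of 0.10, a 95% interval from -0.86 to -0.40 and an adjusted p of 0.000311 by edgeR's quasi-likelihood test (exact permutation p = 0.0286). Its log2 fold change was -0.58 without control replicate 1 and KO replicate 4, -0.71 with the GC trend removed, and -0.35 with library size alone (adjusted p = 0.00526, edgeR).

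Plk1 (ENSMUSG00000030867, chromosome 7, 122159439 to 122169873, plus strand), the mitotic kinase that binds EMI2 on the way to its destruction, was at 69.3, 126, 99.4 and 106 CPM in control replicates 1 to 4 and at 55.3, 48.3, 73.5 and 33.9 CPM in KO replicates 1 to 4. KO replicate 3 was above control replicate 1, and otherwise the groups are separate. The means were 100.4 ± 23.6 and 52.7 ± 16.4 CPM (SD, n = 4 each), 52.5% of the control level. Plk1 fell by 0.93 on the log2 scale, with a standard error of 0.23, a 95% interval from -1.42 to -0.44 and an adjusted p of 0.0041 by edgeR's quasi-likelihood test (exact permutation p = 0.0571). This lies just under a 2-fold change, and Plk1 was past it without control replicate 1 (-1.08) or without KO replicate 3 (-1.12). With the GC trend removed the log2 fold change was -0.61 (adjusted p = 0.00142, edgeR). The strand setting of the counting is not given in the sources used here, and the exons of Plk1 share 156 bases with Gm44985 on the opposite strand.

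**Figure D3:**
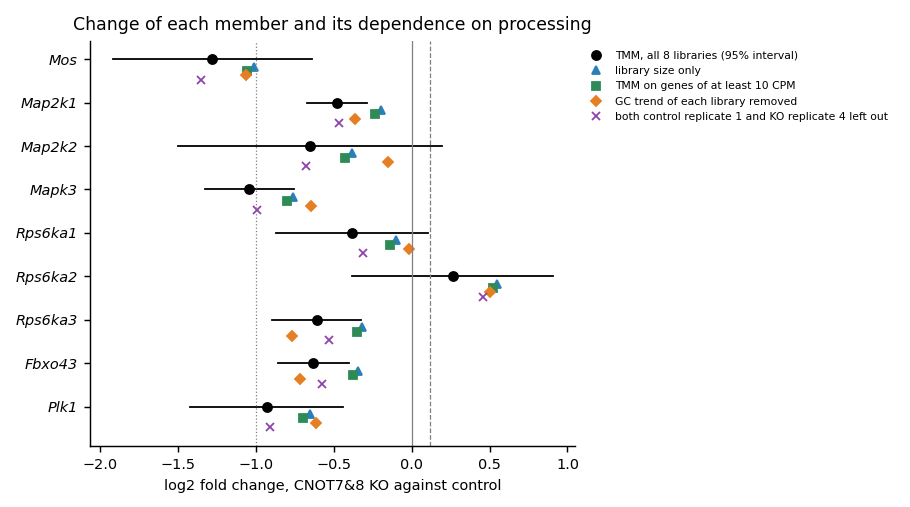
Log2 fold change of each member, CNOT7&8 KO against control, from edgeR (black points with 95% intervals) and under 4 other settings (coloured marks). The dotted line marks a 2-fold decrease, the solid line no change and the dashed line the median of all genes tested, 0.12, and for every member except Rps6ka2 all 5 values lie below 0.

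Levels of different genes can be compared per length, as normalized CPM per kilobase of exons. On this scale the control levels of Mos were 194 to 542, with a mean of 431, and 88 of the 19126 tested genes with a length were at or above that mean, Mos included. Mapk3 (80.8 to 102) and Map2k1 (86.9 to 90.4) followed, with overlapping ranges, then Fbxo43 (60.6 to 77.2) and Plk1 (31.5 to 57.4). The next 3 were an order of magnitude lower, Map2k2 at 1.96 to 6.14, Rps6ka3 at 4.20 to 5.33 and Rps6ka1 at 2.59 to 3.78 CPM per kilobase. Map2k2 overlapped with both, while Rps6ka3 and Rps6ka1 did not overlap with each other. Rps6ka2 was the lowest at 0.183 to 0.314. In KO libraries Mos was again the highest, at 109 to 236 CPM per kilobase, and Map2k1 (60.6 to 65.8) lay above Mapk3 (34.7 to 49.4), which overlapped with Fbxo43 (40.8 to 45.2). Plk1 was at 15.4 to 33.4 CPM per kilobase, and the ranges of Map2k2 (1.46 to 5.03), Rps6ka3 (2.74 to 3.26) and Rps6ka1 (1.64 to 3.55) overlapped, with Rps6ka2 at 0.181 to 0.381.

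**Figure D4:**
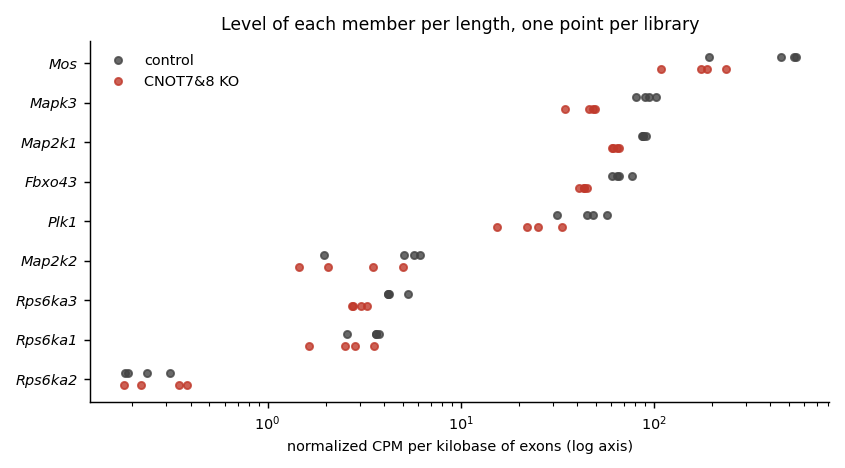
Normalized CPM per kilobase of exons of each member on a log axis, 1 point per library, control (dark) above CNOT7&8 KO (red). The control order runs from Mos, with a mean of 431, to Rps6ka2, with a mean of 0.231, and Map2k1 and Mapk3 exchange places in KO libraries.

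Ratios of members counted in the same library do not depend on the scaling of library sizes, and 6 of them were compared between the groups with an exact two-sided permutation test, adjusted over the 6. None passed, but a ratio that separates the groups fully has an adjusted p of 0.171 when the other 5 do not, so no single ratio could have passed alone. The log2 ratio of Mos to Map2k1 counts was -0.070, 1.36, 1.37 and 1.16 in control replicates 1 to 4 and 0.19, 0.32, 0.71 and -0.38 in KO replicates 1 to 4. The difference of -0.75 gave an exact p of 0.114 (adjusted p = 0.343), since control replicate 1 lay among the KO values. Mos to Fbxo43 gave similar values, with a mean of 1.10 ± 0.84 in control and 0.50 ± 0.52 in KO libraries (SD, n = 4 each) and an adjusted exact permutation p of 0.571. Without control replicate 1 and KO replicate 4 the differences were -0.89 and -0.78 (adjusted exact permutation p = 0.2 for each, with 3 libraries left in a group, where the smallest unadjusted p is 0.1). The Mos to Fbxo43 difference was -1.02 without control replicate 1 alone and -0.36 without KO replicate 4 alone, around -0.60 with all libraries. The smallest p among the 6 was that of Rps6ka2 to Rps6ka3, whose log2 ratio was -4.03 ± 0.36 in control and -3.17 ± 0.53 in KO libraries (SD, n = 4 each), with a difference of 0.86 (exact permutation p = 0.0571, adjusted p = 0.343). The differences were 0.20 for Map2k1 to Map2k2, 0.19 for Rps6ka1 to Rps6ka3 and 0.32 for Fbxo43 to Plk1, with adjusted exact permutation p-values of 0.8, 0.72 and 0.6. That of Fbxo43 to Plk1 was 0.56 without control replicate 1, 0.53 without KO replicate 3, 0.18 without control replicate 2 and 0.11 without KO replicate 4.

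The changes of the members can be set beside those of 59 other genes around the pathway, in 8 lists. All 59 were tested, of which 15 were higher, 20 lower and 24 not past the FDR threshold, with a median log2 fold change of -0.071. There were 13 upregulated and 2 downregulated DEGs among them. Of all genes tested, 31.2% were higher and 24.1% lower, and 23.8% were upregulated and 6.56% downregulated DEGs. These shares are the background for the counts of every list below, the cell markers included. With library size alone, 22 of the 59 were higher and 11 lower, so the balance of directions rests on the scaling. Of the partner kinases and scaffolds of the cascade, 2 of 8 were lower and none higher, with a median of -0.17. Of the 6 genes of the EMI family and its APC/C partners, 4 were lower, including the APC/C activator Cdc20, from 89.6 ± 5.87 to 53.9 ± 4.52 CPM (SD, n = 4 each). Fbxo5, which encodes EMI1, was at 139 ± 11.1 CPM in control against 157 ± 9.71 CPM in KO libraries (SD, n = 4 each), with a log2 fold change of 0.18 that did not pass (adjusted p = 0.161, edgeR), while with library size alone it was 0.46 and passed (adjusted p = 0.0009, edgeR). Cdc20 was named after its values were seen.

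**Figure D5:**
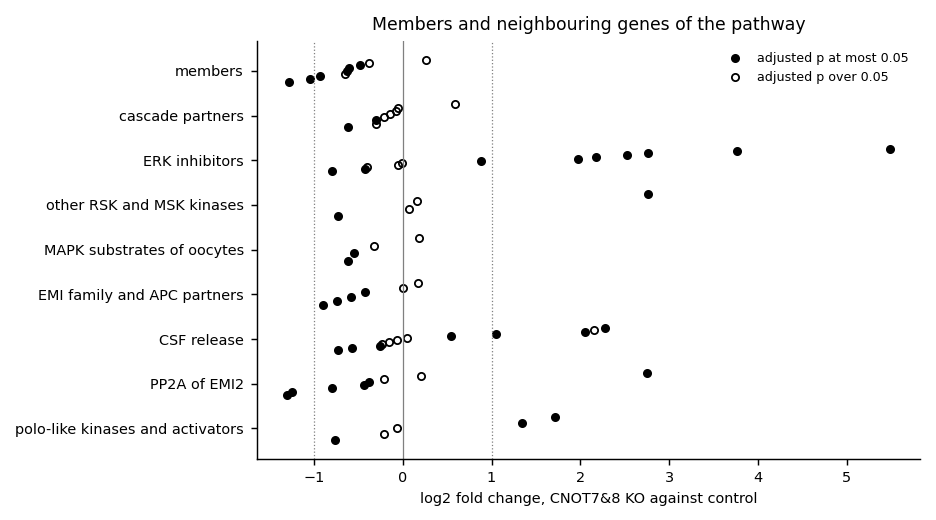
Log2 fold change of the 9 members and of the genes in 8 lists around the pathway, 1 point per gene, filled where edgeR's adjusted p was at most 0.05. The members lie between -1.28 and 0.26, and the inhibitors of ERK signalling reach 5.49, a value fitted to few control counts.

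The list with the most upregulated DEGs was that of inhibitors of ERK signalling, with 7 of 12 higher and 2 lower and a median of 1.42. The dual-specificity phosphatase gene Dusp5, whose product inactivates ERK in the nucleus, had 15, 1, 4 and 1 counts in control replicates 1 to 4 and 100, 87, 248 and 339 counts in KO replicates 1 to 4. It was higher in every KO library (adjusted p = 3.44e-06, edgeR's quasi-likelihood test), but 2 control libraries lay under the floor of 3 counts, so the fitted log2 fold change of 5.49 (SE 0.50) rests on few control counts. The receptor tyrosine kinase antagonist Spry2, with 8, 0, 2 and 2 counts in control replicates 1 to 4 and 10 to 67 per KO library, also rose (adjusted p = 0.000101, edgeR), with a fitted value of 3.77 that is no better grounded. The phosphatase gene Dusp4, with 6 to 13 counts per control library, rose by 2.77 (adjusted p = 0.000146, edgeR). The most abundant inhibitor went the other way. Dusp7, a phosphatase gene of the same family, was at 324, 400, 350 and 388 CPM in control replicates 1 to 4 and at 217, 191, 249 and 183 CPM in KO replicates 1 to 4, and fell by 0.80 on the log2 scale (adjusted p = 0.000171, edgeR). Markers of granulosa and cumulus cells, which surround the oocyte, also moved with genotype. Of 11 tested, 6 were higher, such as Ptgs2 at 2.94 ± 0.797 and 36.7 ± 5.53 CPM (SD, n = 4 each), and 1, Cyp19a1, was lower. Their summed level was 132 to 178 CPM in control against 245 to 307 CPM in KO libraries, and the granulosa transcription factor gene Foxl2 had 0 or 1 count in each library. The study removed cumulus cells with hyaluronidase. The part of these markers in the rise of rare mRNAs such as Dusp5 was not tested, and more cells of such a type and more RNA per cell cannot be told apart.

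Of the other RSK and MSK kinases, Rps6ka4, which encodes MSK2, had 1 to 3 counts in each control library and 12 to 14 in each KO library. Its KO level of 0.817 ± 0.367 CPM (SD, n = 4) was at least 3.74-fold higher than the control floor of 0.219 CPM, which is 3 counts in a control library at its scaled size. Pdpk1, which encodes the kinase PDK1 that acts on RSK, fell by 0.73 (log2), from 221 ± 55.3 to 133 ± 23.2 CPM (SD, n = 4 each, adjusted p = 0.00319, edgeR's quasi-likelihood test). Among 4 substrates of the MAPK pathway in oocytes, 2 were lower. The most abundant of them, Spin1, a spindle-associated protein gene, was at 4314 ± 939 and 4902 ± 479 CPM (SD, n = 4 each, log2 fold change 0.18, adjusted p = 0.296, edgeR), and with library size alone it passed at 0.48 (adjusted p = 0.00541, edgeR).

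Of 12 genes that act in the release from the arrest, 4 were higher and 3 lower, with a median of -0.0071. The upregulated DEGs were Camk2d, the δ chain of CaMKII, by 2.28 on the log2 scale (1.02 ± 0.556 against 5.22 ± 0.926 CPM, SD, n = 4 each), the calcineurin catalytic subunit gene Ppp3ca by 2.06 (13.8 ± 1.85 against 57.7 ± 9.59 CPM, SD, n = 4 each) and the βTrCP2 gene Fbxw11 by 1.04 (41.1 to 57.2 CPM in control against 75.0 to 114 CPM in KO libraries). For all 3, the lowest KO library was above the highest control library, as for 27.0% of all genes tested. The paralogues named next were chosen after their values were seen. Of those of Ppp3ca, Ppp3cb, at 16.3 ± 4.98 CPM in control (SD, n = 4), rose by 0.54 (adjusted p = 0.0463, edgeR), with overlapping groups. Ppp3cc, at 31.0 ± 4.68 CPM in control (SD, n = 4), changed by 0.048 (adjusted p = 0.785, edgeR). With library size alone Ppp3cc passed at 0.34 (adjusted p = 0.0344, edgeR). The more abundant paralogues of Camk2d and Fbxw11 showed no rise that passed the test. Btrc, the βTrCP1 gene, was at 213 ± 11.4 CPM in control and fell by 0.73 (adjusted p = 5.2e-05, edgeR), and Camk2g, the γ chain of CaMKII, was at 211 ± 19.1 and 202 ± 14.8 CPM (SD, n = 4 each, log2 fold change -0.062, adjusted p = 0.64, edgeR). Skp1a, a core subunit of the SCF ligase and the most abundant gene of the list, fell by 0.26 on the log2 scale (3405 ± 283 to 2847 ± 195 CPM, SD, n = 4 each, adjusted p = 0.0491, edgeR's quasi-likelihood test), but with library size alone its change turned to 0.025 and did not pass (adjusted p = 0.815, edgeR).

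The protein phosphatase 2A (PP2A) genes, whose B56 holoenzymes bind EMI2 marked by RSK, included 5 of 8 lower and 1 higher, with a median of -0.40. The B56 genes Ppp2r5d and Ppp2r5b were downregulated by edgeR's quasi-likelihood test. Ppp2r5d was at 98.5, 101, 83.1 and 104 CPM in control replicates 1 to 4 and at 43.9, 35.8, 38.8 and 38.1 CPM in KO replicates 1 to 4, and fell by 1.31 on the log2 scale. Ppp2r5b fell by 1.24, from 15.6 ± 1.83 to 6.63 ± 1.15 CPM (SD, n = 4 each), and lay just under 2-fold with library size alone (-0.96). The catalytic subunit gene Ppp2cb, with 4 to 73 counts per control library, rose by 2.75 to 7.28 ± 0.759 CPM (SD, n = 4), while the far more abundant Ppp2ca was at 171 ± 30.2 and 148 ± 16.1 CPM (SD, n = 4 each, log2 fold change -0.21, adjusted p = 0.203, edgeR, and 0.081 with library size alone). Of the other polo-like kinases and their activators, Plk3 and Plk2 rose by 1.71 and 1.34 on the log2 scale from 1.89 ± 0.689 and 3.21 ± 0.860 CPM (SD, n = 4 each), and Aurka, the PLK1-activating kinase gene, fell by 0.76, from 208 ± 14.7 to 123 ± 5.54 CPM (SD, n = 4 each, adjusted p = 4.81e-05, edgeR).

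The genes whose pattern over the 8 libraries was most like that of a member were found by the root-mean-square difference of log2 CPM centred on each gene's mean, over 8727 genes averaging 10 CPM or more. For Mos they were Mus81, Apitd1 and Mrpl54, with differences of 0.0841, 0.0861 and 0.0868. Like Mos, each had its lowest control value in replicate 1, as in Mus81, at 71.6 CPM there, 172 to 190 CPM in the other control libraries and 37.2 to 82.2 CPM in KO libraries. For Fbxo43 they were Aplf, Psmd8 and Atg12, with differences of 0.0363, 0.0382 and 0.0407, and these had their highest control value in replicate 1, as Fbxo43 did. Aplf was at 85.7 CPM there, 70.5 to 74.2 CPM in the other control libraries and 48.0 to 53.5 CPM in KO libraries. The genes were chosen by these same values, so their likeness in control replicate 1 follows from the choice. The likeness describes these 8 libraries only, which differ in depth and in how their counts follow GC content.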

How the data were processed

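The 9 members, the lists and the tests were chosen with earlier results of these data known. The authors depleted ribosomal RNA (the labels name a stranded total RNA kit, the methods a stranded mRNA kit), used the nf-core/rnaseq pipeline with STAR 2.6.1d to map read pairs to GRCm38, and deposited the raw counts of each gene, not normalized. The submitters' processing notes name edgeR 3.11. The counting tool of the pipeline run, its annotation and its strand setting are not given in the sources used here.

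Counts were analysed in R 4.3.3 with edgeR 4.0.16 (quasi-likelihood test, TMM, Benjamini-Hochberg over 19241 genes) and, as alternatives, edgeR's exact test and DESeq2 1.42.0. The DEG thresholds were an FDR of 0.05 and a 2-fold change. Single values were compared with exact two-sided permutation tests over 70 assignments of 8 libraries, and ratios used a prior count of 0.5. Replicate libraries differed by more than counting noise (chi-square per degree of freedom 6.76 or more). Libraries were not paired by replicate number in the main fit. Whether same-numbered libraries shared a preparation cannot be told from their correlations, given below. GENCODE vM21, which held 98.2% of the identifiers, gave coordinates, lengths, GC content and 3′UTRs. The text names all members, up to 3 DEGs of largest change and the most abundant gene per list, and 3 genes of most alike pattern for Mos and Fbxo43. The most abundant gene of 1 list and a ratio added after the data were seen are not reported here. Figures were made with Python 3.11.15 and matplotlib 3.10.9.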

Additional observations from a re-analysis of the deposited data

Results flagged for a closer look

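In groups of 4 libraries, a library whose gap to its nearest neighbour exceeded Dixon's 95% critical value was singled out. This was examined for 30 groups and held for 7, where chance gives 1.5. The groups are not independent, since the ratios reuse the members' counts in the same libraries, so the 7 are not separate observations. Control replicate 1 stood apart from the other 3 control libraries in 6 of them. Rps6ka1 was at 11.0 CPM there against 15.6 to 16.1 CPM, and Rps6ka3 at 44.4 CPM against 35.0 to 35.5 CPM. The log2 ratio of Mos to Map2k1 was -0.070 against 1.16 to 1.37, and that of Mos to Fbxo43 was -0.15 against 1.43 to 1.61. The log2 ratio of Map2k1 to Map2k2 was 4.73 against 3.14 to 3.37, and that of Rps6ka1 to Rps6ka3 was -2.01 against -1.18 to -1.12. The last was the log2 ratio of Rps6ka2 to Rps6ka3 in control replicate 3, at -3.49 against -4.25 to -4.18. The deviations of control replicate 1 from the control mean and those of KO replicate 4 from the KO mean, over genes of at least 10 CPM, had a correlation of 0.821 across genes, which are not independent replicates.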

How the results depend on the processing

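All members kept the sign of their log2 fold change in every setting tried, and Mos, Mapk3, Rps6ka3, Fbxo43 and Plk1 stayed past the FDR threshold in each. Map2k1 did not pass with library size alone (-0.20), and Map2k2 passed without control replicate 1 and KO replicate 4 (-0.68). Leaving out 1 library at a time, Map2k2 ranged from -1.03 to -0.41 and passed without control replicate 1 (-0.92, adjusted p = 0.0268, edgeR). The number of downregulated members was 1 in place of 2 with library size alone, upper quartile scaling, TMM on genes of at least 10 CPM, a filter of 1 CPM in 4 libraries, without both libraries named, or with the GC trend removed, and 1 to 3 with 1 library left out (1 without control replicate 4 or KO replicate 4, as Mapk3 then lies under 2-fold, and 3 without control replicate 1 or KO replicate 3). Over all genes, 587 were downregulated with library size alone and 628 with TMM on genes of at least 10 CPM, in place of 1263, and 2882 upregulated with the filter of 1 CPM, in place of 4582, where 13876 genes were tested. Of the 59 list genes, 11 and 12 were lower under the first 2 settings. These scalings moved the median of all genes by 0.286 and 0.254, and upper quartile scaling by 0.101. The log2 ratio difference of Map2k1 to Map2k2 ranged from -0.078 to 0.57 and that of Rps6ka1 to Rps6ka3 from -0.021 to 0.42 with 1 library left out, turning sign without KO replicate 4 for the first and without control replicate 1 or KO replicate 3 (-0.000304) for the other. With the replicate number as a block, Mos was at -1.23 and 6 members were lower, as without it. Same-numbered libraries had correlations of their deviations of -0.381, -0.126, 0.384 and -0.557. The causes of these shifts were not tested. Depth limits the values of Rps6ka2 and Rps6ka4, which had under 100 counts per library.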
